A study of Mus musculus with 34 samples.

Results

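The genes for the proteins of the cytosolic ribosome were followed over 10 mouse cell groups on Affymetrix expression arrays. Members were the genes whose only symbol in the probe annotation is that of a ribosomal protein (Rpl or Rps followed by a number, Rplp0 to Rplp2, or Rpsa, without the Rps6k kinases), each represented by its brightest probe set. The rule found 35 of 8251 genes: 14 of the large subunit, 16 of the small subunit, the stalk protein Rplp0, and 4 variant copies, Rpl39l, Rpl7l1, Rps27l and Rps4l. Neither Rplp1 nor Rplp2 had a probe set of its own. A further 39 probe sets carry several symbols of which at least 1 is a ribosomal protein; they were not members. Values are log2 signals made with RMA, a method that corrects, normalizes and summarises probe signals, and differences are log2 differences of group means with their standard error (SE).

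The 6 pluripotent groups were inner cell masses of E3.5 blastocysts taken by immunosurgery (ICM, 3 arrays), embryonic stem cells (ESC, 2 arrays), embryonic germ cells (EGC, 3 arrays) and primordial germ cells (PGC) sorted by flow cytometry for an Oct4/GFP reporter. ESC were male, at passages 9 to 14, and EGC were male, from E12.5 germ cells, at passage 19; both grew in LIF and serum. PGC were of mixed sex at E11.5 (4 arrays) and separated into female and male at E13.5 (3 arrays each). The 4 somatic groups were somatic cells of gonad and mesonephros at E11.5, taken as the fraction without the reporter (SGM, 4 arrays), E13.5 embryonic fibroblasts at passage 2 in serum (MEF, 6 arrays), adult neural stem cells and adult haematopoietic stem cells. ICM, SGM and MEF were of mixed sex. Neural stem cells (NSC, 2 arrays) came from the subventricular zone at 8 weeks, were of mixed sex and grew as neurospheres at passage 1 with EGF; haematopoietic stem cells (HSC, 2 arrays) were sorted from male bone marrow at 8 weeks as Sca-1+, c-Kit+, CD34-, lineage-negative side population cells. All groups were C57Bl/6 except ICM, where replicate 1 came from a cross of [C57Bl/6 x C3H F1] with CD1 F1 and replicates 2 and 3 from C57Bl/6 x C3H F1. The labels call the replicates biological without naming animals or cultures, so p-values measure the spread between these arrays, which may be technical. Pou5f1, the gene of Oct4, read 9.38 to 10.67 in the group means of the pluripotent groups and 4.38 to 5.77 in the somatic ones. NSC and HSC stood apart from the other groups on the control probe sets of the array, as described with the HSC results.

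A ribosome consists of a small subunit, which reads the messenger RNA, and a large subunit, which joins amino acids; nearly all of its proteins are present in a single copy per ribosome and are made by every cell. Messenger RNAs of ribosomal proteins begin with a run of pyrimidines, the TOP motif, through which mTORC1 and Larp1 control their translation together. Assembly takes place in the nucleolus with many factors that are not part of the finished ribosome, and a few ribosomal proteins have relatives, or paralogues, that are made in some tissues only, such as Rpl39l in the male germ line.

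RefSeq promoter windows (assembly GRCm38.p6, 250 bases before to 50 after each annotated start) matched 28 of the 35 members, with 37 windows. The windows below run from 50 bases before the start to 25 bases from it on, 5′ to 3′ on the gene's strand, so that the start follows the first 50 letters. They are shown because they carry what many members share apart from their name. Capitals mark a pyrimidine run of at least 8 letters (C or T) that reaches within 10 bases of the start, and the letters CCGGAAG, the core bound by ETS factors.
Rps10 (chr17:27635220-27635294, minus strand): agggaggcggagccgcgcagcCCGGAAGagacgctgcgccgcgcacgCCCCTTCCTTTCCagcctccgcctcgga
Rpl38 (chr11:114668530-114668604, plus strand): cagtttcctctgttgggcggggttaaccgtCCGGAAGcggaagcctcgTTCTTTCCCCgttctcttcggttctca
Rps18 (chr17:33955641-33955715, minus strand): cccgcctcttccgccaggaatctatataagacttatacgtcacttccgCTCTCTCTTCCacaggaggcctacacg
Rps27 (chr3:90213624-90213698, minus strand): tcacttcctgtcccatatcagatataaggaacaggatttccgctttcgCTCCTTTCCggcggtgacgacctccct
Rpl7a (chr2:26910757-26910831, plus strand): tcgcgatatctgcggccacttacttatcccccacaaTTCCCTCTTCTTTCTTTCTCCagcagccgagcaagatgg
Rpl39 (chrX:37085198-37085272, minus strand): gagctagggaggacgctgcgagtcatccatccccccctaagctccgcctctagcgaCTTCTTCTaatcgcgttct
Rpl39l (chr16:10170178-10170252, plus strand): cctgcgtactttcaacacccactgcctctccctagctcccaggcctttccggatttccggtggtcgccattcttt
In Rps10, Rpl38, Rps18, Rps27 and Rpl7a the run covered the annotated start. In Rpl39 it began at base 7, counted from 1 at the start, and Rpl39l, its paralogue, had no such run. A run was found in 11 of 28 members (39.3%) and in 15.8% of 17491 genes with a window. Shorter runs, and runs farther from the annotated start, were not counted, so a member without a marked run may still have a TOP motif. Searched on both strands over the whole windows, CCGGAAG was present in 12 members (42.9%) against 12.9% of all genes. AAGATGGC, the core of the YY1 motif, stood in 5 members (17.9% against 3.57%), TCTCGCGA in 5 (17.9% against 1.59%) and GGGCGG, the GC box, in 17 (60.7% against 49.2%). None of these 4 motifs contains another, and a match describes the letters only.

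The members ranged from the brightest probe sets of the array to dim ones. The mean level of 15 members lay above the 99th percentile of all genes, from Rpl7a at 12.33 to Rpl41 at 14.05. At the other end 11 members lay below the median of all genes (7.72), among them Rps15 (5.23), Rps14 (5.67), Rpl32 (5.67), Rps20 (5.78) and Rpl39 (5.92). A signal is set by the probes as well as by the RNA, so these levels rank no gene against another. The table has no detection calls, and for the dim members a difference may be understated.

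On the probe sets used, the median ribosomal protein gene varied less between cell groups than the median gene. In a moderated F test over the 10 groups (limma, Benjamini-Hochberg over 8251 genes) 34 of 35 members were called, but so were 97.1% of all genes; Rps4x, a small subunit protein encoded on the X chromosome, was not (adjusted p = 0.165). The distance between the highest and lowest group mean was 0.89 for the median member and 0.79 for the median of the 31 members that are not variant copies, compared with 1.30 for the median gene. It was under 1, a 2-fold difference, for 22 of those 31 members and for 39.3% of all genes. The narrowest were Rps24 (0.34), Rps20 (0.36), Rpl35a (0.41), Rps4x (0.45) and Rps13 (0.47). Rps24, whose product is needed for maturation of 18S ribosomal RNA, stayed between 13.52 and 14.03 on all 32 arrays. The group means of its dimmer probe set ran from 5.39 in ICM to 6.06 in HSC. Members were not compared with genes of like signal, so the part of signal level in these ranges was not tested. The widest were Rpl39l (4.27), Rps4l (2.99), Rpsa (2.25), Rps10 (1.98), Rpl7l1 (1.91), Rpl13a (1.76), Rpl22 (1.73), Rps7 (1.42), Rpl19 (1.36) and Rps28 (1.18), so 3 of the 4 variant copies were in this set.

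**Figure D1:**
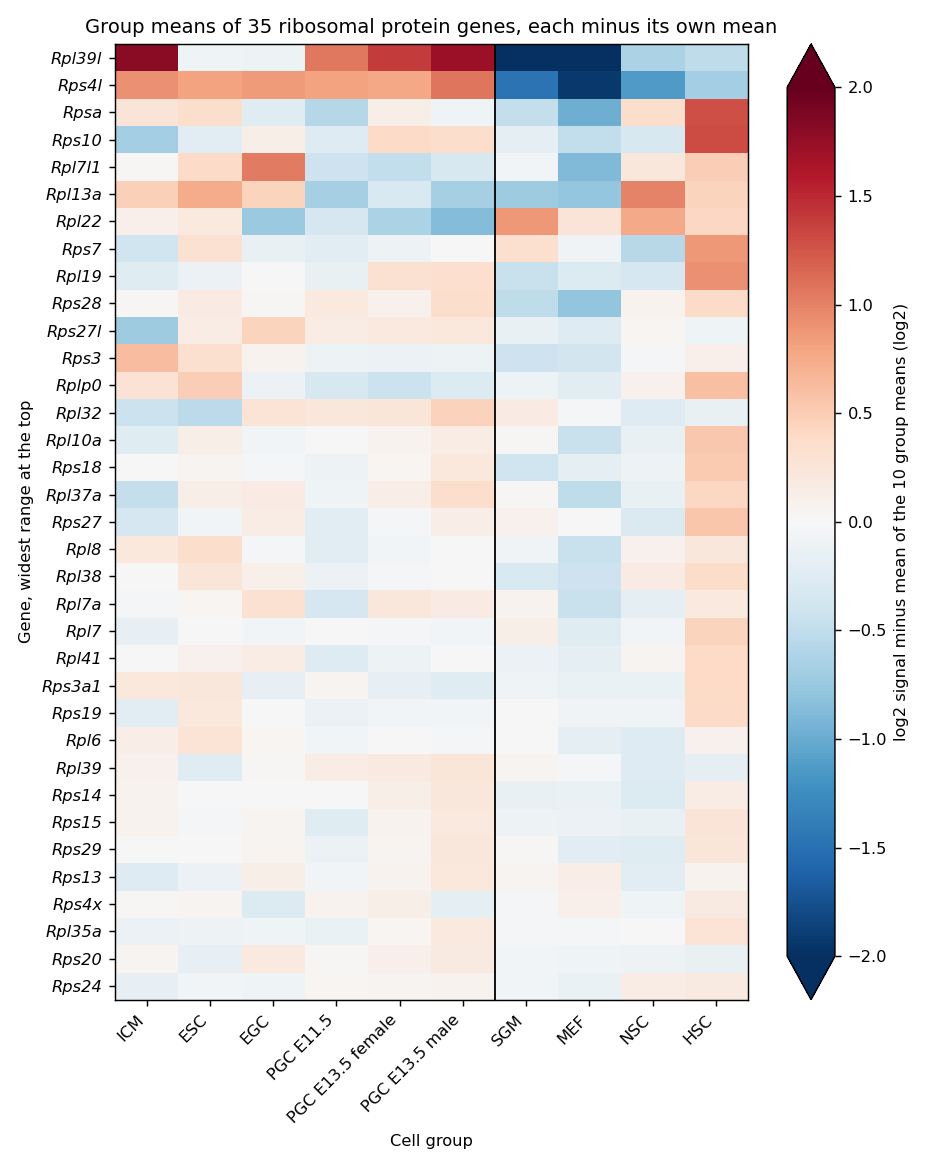
Group mean of each of the 35 members (rows) in the 10 cell groups (columns), as log2 signal minus the gene's mean over groups; red is above and blue below that mean, the scale ends at 2 in either direction, and the black line separates pluripotent from somatic groups. The upper rows hold the wide patterns of Rpl39l and Rps4l, Rpsa and Rps10 are red in HSC, and the rows at the bottom stay pale; Rpl39l in SGM and MEF is at the end of the scale.

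Rpl39l had the widest pattern of all members. It is a variant of Rpl39, a small protein in the wall of the exit tunnel of the large subunit, and is known from the testis. The signal of Rpl39l was 8.19, 8.38 and 8.93 in ICM, 7.78, 7.89, 7.48 and 7.83 in PGC E11.5, 8.35, 8.27 and 7.67 in female and 8.33, 8.60 and 8.30 in male PGC E13.5. In the cultured pluripotent lines it was 6.60 and 6.63 (ESC) and 6.66, 6.62 and 6.51 (EGC). The somatic groups gave 4.30, 4.07, 4.27 and 4.28 in SGM, 4.46 to 4.64 with a median of 4.53 in MEF, 5.88 and 6.25 in NSC, and 6.32 and 6.05 in HSC. Every array of a pluripotent group was thus above every somatic array, and all ICM and PGC arrays were above both cultured lines. The difference of pluripotent over somatic groups was 2.41 (SE 0.07; limma, adjusted p = 1.37e-20), a fold of 5.30. Rpl39l was lower in ESC than in ICM by a log2 difference of -1.88 (SE 0.18; limma, adjusted p = 5.23e-09) and lower in EGC than in male PGC E13.5 by -1.81 (SE 0.16; limma, adjusted p = 9.89e-10). Between these 2 steps from embryo to culture the difference of differences was 0.07 (SE 0.24; limma, adjusted p = 0.841). The parent gene Rpl39, on the X chromosome, was dim and stayed between group means of 5.63 (NSC) and 6.13 (male PGC E13.5).

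Rps4l, a relative of the small subunit gene Rps4x that the RefSeq gene table lists as a transcribed pseudogene, separated the same groups without the drop in culture. Its signal was 9.51, 9.71 and 10.14 in ICM, 9.90 and 9.47 in ESC, 9.76, 9.68 and 9.75 in EGC, and 9.66, 9.61, 9.56 and 9.87 in PGC E11.5. Female PGC E13.5 gave 9.64, 9.79 and 9.51 and male PGC E13.5 10.11, 9.82 and 9.88. SGM gave 7.61, 7.01, 7.42 and 7.54, MEF 6.48 to 7.67 with a median of 6.83, NSC 7.76 and 7.71, and HSC 8.37 and 8.01. No pluripotent array overlapped a somatic one, and the difference was 2.18 (SE 0.10; limma, adjusted p = 1.15e-16). This rests on a probe set of the kind shared by related transcripts. The plain probe set of the same gene differed by 0.12 (limma, adjusted p = 0.062), with group means from 6.00 to 6.77, so which transcript gave the pattern is uncertain.

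Rpl7l1, a relative of Rpl7 whose product belongs to precursors of the large subunit, was highest in EGC (8.32, 8.41 and 8.60). It was 7.06, 7.18 and 7.04 in male and 6.88, 6.91 and 6.93 in female PGC E13.5, 7.83, 7.05 and 7.41 in ICM, and 7.71 and 7.86 in ESC. The lowest arrays were those of MEF, 6.22 to 6.87 with a median of 6.51, against 7.57, 7.36, 7.27 and 7.23 in SGM. EGC were thus above every PGC array and MEF below every SGM array. Rps27l, a paralogue of Rps27 that p53 induces, was lowest in ICM (6.76, 6.84 and 6.45) and highest in EGC (7.86, 7.90 and 7.77). Its ICM arrays lay below both ESC arrays (7.60 and 7.49), with a difference of 0.86 (SE 0.16; limma, adjusted p = 0.000243).

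**Figure D2:**
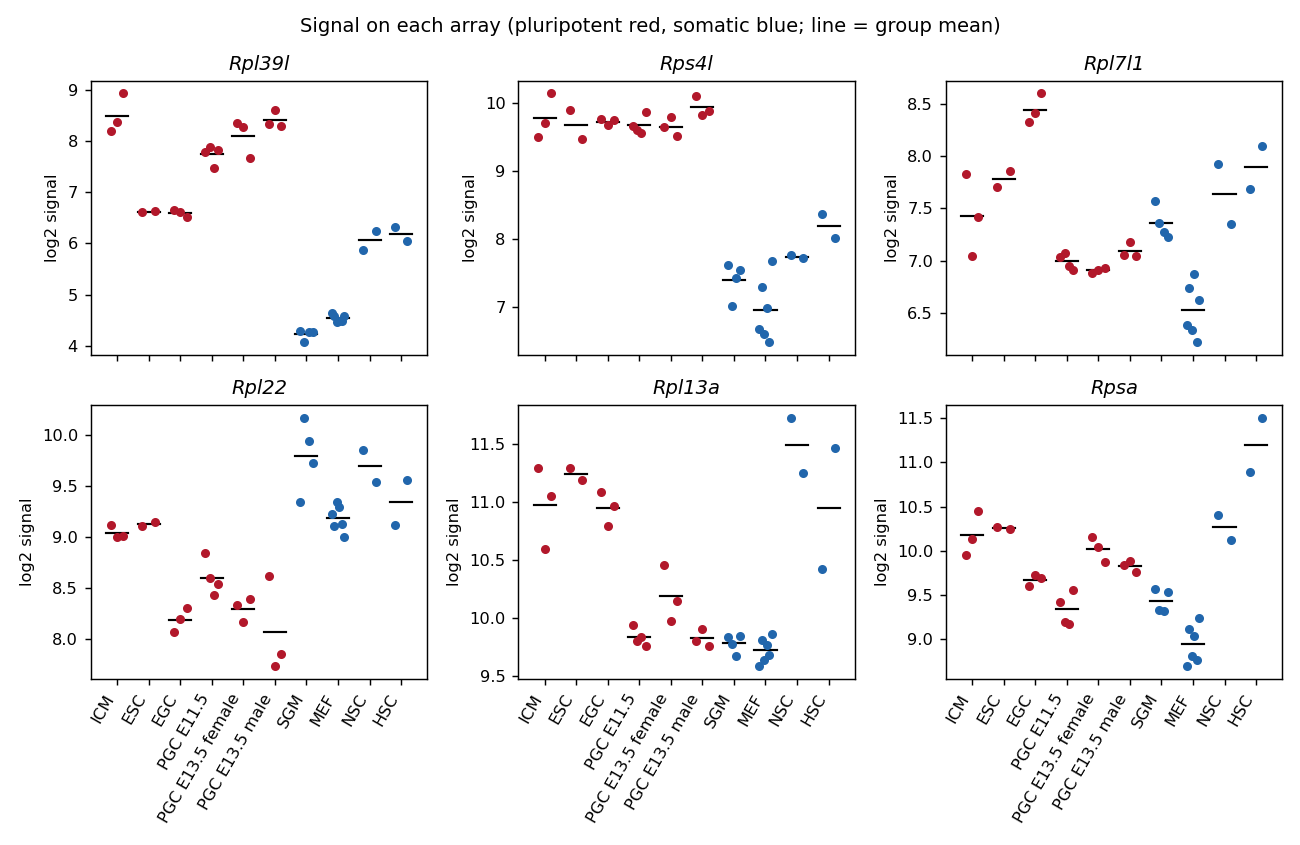
Log2 signal of 6 members on each of the 32 arrays by cell group; points are arrays, red for pluripotent and blue for somatic groups, and black lines are group means, with a separate y axis for each gene. Rpl39l and Rps4l separate the red from the blue points, Rpl39l also sets ESC and EGC apart from the other red groups, and Rpl22, Rpl13a and Rpsa do not follow that division.

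Ribosomal protein RNA did not move in a single direction between pluripotent and somatic groups. Of 35 members 10 were higher and 6 lower, compared with 29.1% of all genes higher and 34.9% lower, and the median difference was 0.06 against -0.01 over all genes. The largest rises after Rpl39l and Rps4l were small: Rps28, a small protein at the mRNA exit of the small subunit (0.35), Rps3, at the mRNA entry (0.30), and Rps27l (0.18). Rpl22, an RNA-binding protein of the large subunit, was the largest fall, at -0.95 (SE 0.09; limma, adjusted p = 1.09e-10), followed by Rps7 (-0.23) and Rps27 (-0.15). Rps7 read -0.025 under quantile normalization (limma, adjusted p = 0.818) and was not called when either NSC replicate 1 or HSC replicate 1 was left out, and Rps27l read 0.082 without HSC replicate 1 (limma, adjusted p = 0.238) and lost its call without NSC replicate 2 or without MEF. Rplp0 (-0.15) and Rpl7 (-0.11) were called lower too, but under quantile normalization, which gives all arrays the same distribution, they read 0.17 and 0.10. The balance depended on scaling and on which somatic groups were used. Under quantile normalization 20 members were higher and 2 lower, against 31.7% and 34.1% of all genes. Without NSC and HSC 22 members were higher and 3 lower, against 36.4% and 32.3% of all genes; without MEF 7 were higher and 11 lower, against 27.8% and 34.7%. Without NSC replicate 1 alone the number lower was 3.

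Rpl22 was measured at 9.35, 10.17, 9.95 and 9.73 in SGM, 9.00 to 9.35 (median 9.18) in MEF, 9.86 and 9.55 in NSC, and 9.12 and 9.57 in HSC. It was 9.12, 9.00 and 9.01 in ICM and 9.11 and 9.15 in ESC, but 8.07, 8.20 and 8.31 in EGC, 8.84, 8.61, 8.43 and 8.54 in PGC E11.5, 8.34, 8.17 and 8.39 in female and 8.62, 7.73 and 7.85 in male PGC E13.5. The germ line groups and EGC were therefore below all other arrays, while ICM and ESC met the lower somatic arrays. A dimmer probe set of Rpl22 gave 0.03 for pluripotent over somatic (adjusted p = 0.57), and -0.11 for PGC E11.5 over SGM (adjusted p = 0.252), so the probe sets disagree. Rpl13a, a large subunit protein that can leave the ribosome to repress inflammatory messages, had another division. It was between 10.60 and 11.30 in ICM, ESC and EGC, at 11.73 and 11.25 in NSC, and at 10.43 and 11.47 in HSC, where the arrays disagreed. PGC E11.5 (9.94, 9.80, 9.84 and 9.76), male PGC E13.5 (9.81, 9.91 and 9.77), SGM (9.84, 9.78, 9.68 and 9.85) and MEF (9.59 to 9.87, median 9.73) were all lower, and female PGC E13.5 lay between at 10.46, 9.98 and 10.15.

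Primordial germ cells and the somatic cells of the same E11.5 tissue were compared directly, since both were taken by the same reporter. The labels do not say whether arrays of the 2 groups came from the same sorts, and they were not paired. In this comparison 5 members were higher and 5 lower, against 23.2% and 26.9% of all genes, with a median of -0.06 against -0.04 over all genes. Rpl39l was higher by 3.52 (SE 0.14; limma, adjusted p = 8.36e-18), and Rps4l by 2.28. Rps28 rose by 0.71 (SE 0.10; limma, adjusted p = 7.60e-07): its arrays read 13.97, 13.95, 13.90 and 13.77 in PGC E11.5 and 13.32, 13.07, 13.09 and 13.25 in SGM, without overlap. Its other bright probe set rose by 0.36 (limma, adjusted p = 0.00621); the brightest is of a kind that can match a gene family. Rps3 (0.32) and Rps18 (0.30), at the head of the small subunit, completed the rises. The falls were Rpl22 (-1.19), Rps7 (-0.54), Rpl7a (-0.40), Rpl7l1 (-0.36) and Rps27 (-0.32). Rpl7l1 lost its call under array-median centring (limma, adjusted p = 0.0699), under quantile normalization (limma, adjusted p = 0.0805) and when any 1 of 5 arrays was left out. Quantile normalization gave 11 higher and 4 lower (24.2% and 25.7% of all genes), and centring on the array median 8 and 4 (25% and 24.7%). Over 5 measured erythroid markers of 6 the mean level was 11.29 to 11.95 on the SGM arrays and 6.38 to 7.89 in PGC E11.5, and their part in these differences was not tested. In bulk samples such as these, fewer cells of a type and less RNA per cell cannot be told apart.

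Between E11.5 and E13.5 the germ cells leave the cell cycle as mitotic arrest begins in the male and meiosis in the female. More ribosomal protein genes rose than fell, but the shares that rose, 37.1% in males and 14.3% in females, were near those of all genes. In male PGC E13.5 13 members were higher and 1 lower than at E11.5, against 31.7% and 20.7% of all genes, with a median of 0.22 against 0.15. In female PGC E13.5 5 were higher and none lower, against 16.3% and 15.2% of all genes, with a median of 0.08 against 0.09; of all members 9 had an unadjusted p under 0.05 in limma. Rps10 and Rpsa, both of the small subunit, Rpl7a and Rpl19, of the large subunit, and Rps15 rose in either sex. In females Rpl19 lost its call without female replicate 1 or 2, and Rps15, a dim member, without female replicate 2. Rpl7a read 12.01, 12.12, 12.01 and 12.05 at E11.5, 12.59, 12.61 and 12.62 in females and 12.53, 12.52 and 12.56 in males. Each E13.5 array was above each E11.5 array, with differences of 0.56 (SE 0.09; limma, adjusted p = 3.95e-05) in females and 0.49 (SE 0.09; limma, adjusted p = 0.000134) in males. Rps10 read 11.74, 11.55, 11.61 and 11.93 at E11.5, 12.47, 12.33 and 12.23 in females and 12.45, 12.32 and 12.19 in males, again without overlap. Its differences were 0.64 and 0.61. Rpl39l rose in males by 0.66 (SE 0.15; limma, adjusted p = 0.000796); in females its difference was 0.35 (limma, adjusted p = 0.0735). Rpl22 was the only fall in males, at -0.54, and was no longer called without replicate 2 or without replicate 3 of that group. Under quantile normalization 22 rose in males and 14 in females, against 28.8% and 16.5% of all genes. The number of rises in females was 3 without female replicate 2 and 8 without female replicate 3. These 2 comparisons share the E11.5 arrays. The mean level of the erythroid markers was 7.97 to 8.09 on the male E13.5 arrays and that of 6 fibroblast markers 8.40 to 8.66, against 7.78 to 8.24 for the fibroblast markers at E11.5. The 18S probe set read 12.86 at E11.5, 14.54 in females and 15.06 in males, and the 3′ minus 5′ difference of the actin probe sets was 0.95, 1.00 and 0.39. The part of these markers and of RNA quality was not tested.

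Between the sexes at E13.5 no member was called in limma in either direction, 1 had an unadjusted p under 0.05, and array weights gave 2; of all genes 6.29% were higher and 2.33% lower in females. The X-linked members were Rps4x, at 13.39, 13.45 and 13.40 in females and 13.14, 13.13 and 13.06 in males, and Rpl39. The arrays of Rps4x did not overlap, but the difference of 0.30 (SE 0.16) did not pass (limma, adjusted p = 0.25). Rpl39 differed by -0.07 (SE 0.09; limma, adjusted p = 0.655).

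Derivation of stem cell lines was examined as ESC over ICM and EGC over male PGC E13.5. In ESC 6 members were higher and 2 lower than in ICM, against 15.3% and 12.6% of all genes. ICM differed from ESC in strain and were of mixed sex, while ESC were male. Strain, sex and the step into culture cannot be told apart here. Apart from Rpl39l, the fall was Rpl39 (-0.32), and the rises were Rps27l (0.86), Rps7 (0.70), Rpl37a, a zinc-binding large subunit protein (0.59), Rps19, a gene mutated in Diamond-Blackfan anaemia (0.44), Rpl10a (0.35) and Rps27 (0.28). Rpl37a read 10.27, 10.40 and 10.38 in ICM and 10.93 and 10.95 in ESC. Its arrays did not overlap, whereas those of Rps7 did (11.59, 11.74 and 12.67 in ICM, 12.65 and 12.74 in ESC). The call of Rps7 was lost when any 1 of 4 arrays was left out, that of Rpl10a without ESC replicate 1, and that of Rpl39, at -0.19, without ESC replicate 2. The number of rises was 3 without ESC replicate 1, and that of falls 1 without ESC replicate 2. Quantile normalization gave 13 higher and 2 lower (13.9% and 13.1% of all genes). The Gapdh probe sets for the 3′ and 5′ ends differed by 4.00 in ICM and 2.65 in ESC, the 18S probe set read 11.04 and 10.55 against at least 12.86 in the other groups where it could be read, and the part of RNA quality was not tested.

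In EGC 2 members were higher and 2 lower than in male PGC E13.5, against 14.8% and 15.9% of all genes. Rpl7l1 rose by 1.35 (SE 0.17; limma, adjusted p = 4.43e-07) and Rpl13a by 1.12 (SE 0.18; limma, adjusted p = 1.93e-05), and Rpl39l and Rps28 (-0.32) fell. The call of Rps28 was lost on leaving out any 1 of the 6 arrays of the 2 groups and under array-median centring (limma, adjusted p = 0.101). The number of falls was 1 without male replicate 2, male replicate 3 or EGC replicate 1. Quantile normalization gave 2 higher and 13 lower (14.4% and 19.1% of all genes), and array-median centring 3 and 1 (16.3% and 11.9%). EGC derive from E12.5 cells, so the male E13.5 group is a near but not exact origin. Set against each other, EGC over ESC gave 4 members higher and 4 lower (20.8% and 18.6% of all genes). Higher were Rpl32 (0.79), Rpl7l1 (0.66), Rps20 (0.36) and Rpl39 (0.27), of which Rpl32, Rps20 and Rpl39 are dim; lower were Rpl22 (-0.94), Rplp0 (-0.61), Rpsa (-0.58) and Rpl8 (-0.39). Quantile normalization gave 4 and 11 (22.4% and 18.8% of all genes). Without ESC replicate 1 these numbers were 1 higher and 2 lower, and without EGC replicate 1 the number higher was 2. Without ESC replicate 2 Rpl39 read 0.14 (limma, adjusted p = 0.403). Rplp0, the base of the stalk that recruits elongation factors, read 13.14, 13.14 and 13.16 in EGC and 13.76 and 13.75 in ESC. The difference was -0.61 (SE 0.12; limma, adjusted p = 0.00023), without overlap. The 3′ minus 5′ difference of the actin probe sets was 1.86 in EGC, 0.39 in male PGC E13.5 and 1.56 in ESC. That of the Gapdh probe sets was 3.16, 3.57 and 2.65, and the 18S probe set read 14.43, 15.06 and 10.55. The part of RNA quality in the EGC comparisons was not tested.

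The step into culture was then compared between the lineages as a difference of differences, EGC minus male PGC E13.5 against ESC minus ICM. It was above 0 for 3 members and below 0 for 7, against 14.2% and 18.3% of all genes. The embryo side holds the differences of strain and sex between ESC and ICM, and the part of RNA quality was not tested. Rpl7l1 (1.00), Rpl13a (0.86) and Rps3 (0.47) gained more in the germ line, and Rps7 (-0.87), Rpl37a (-0.77), Rps10 (-0.70), Rps27l (-0.63), Rpl10a (-0.56), Rps28 (-0.47) and Rps19 (-0.38) more in the embryo. Rps3 was the least firm: it read 0.25 without ICM replicate 3 (limma, adjusted p = 0.175) and 0.087 under quantile normalization (limma, adjusted p = 0.744), and leaving out any 1 of 8 arrays, or a replicate block (limma, adjusted p = 0.084), ended its call. Rpl13a read 0.40 under quantile normalization (limma, adjusted p = 0.314) and lost its call without ESC replicate 2. Array-median centring ended the calls of Rps7, Rps10 and Rps27l (limma, adjusted p = 0.0589, 0.0715 and 0.0763), and so did leaving out any of 3, 6 and 4 single arrays. The same centring also ended the calls of Rps28 and Rps19, so that below 0 only Rpl37a and Rpl10a stayed called. Quantile normalization gave 1 above and 15 below 0 (13.2% and 17.1% of all genes), and array-median centring 3 and 2 (17.1% and 11.7%). The number above 0 was 1 without ESC replicate 2, and that below 0 was 3 without ESC replicate 1, 4 without ESC replicate 2 and 4 without EGC replicate 3.

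Among somatic groups, MEF had the lowest ribosomal protein signals and HSC the highest. The mean over the 35 members was 9.83 to 10.03 on the MEF arrays, 10.04 to 10.12 in SGM, 10.14 and 10.24 in NSC and 10.54 and 10.63 in HSC. ICM, ESC, EGC and the PGC groups lay between 10.18 and 10.46. Over the 31 members that are not variant copies the group mean was 10.38 in MEF, 10.54 in SGM, 10.57 in NSC and 11.00 in HSC. On these members PGC E11.5, at 10.49, lay below SGM and NSC, and the other pluripotent groups lay between 10.58 and 10.71. In MEF over SGM 2 members were higher and 12 lower, against 22.2% and 27.6% of all genes. The largest falls were Rpl7l1 (-0.83), Rpl22 (-0.61), Rpl37a (-0.53), Rpl7a (-0.52) and Rpsa (-0.49), and the rises were Rpl39l (0.31) and Rps18 (0.20), the latter at -0.39 under quantile normalization. The dimmer probe set of Rpl22 gave -0.16 and was not called (limma, adjusted p = 0.0547). With arrays centred on the median of the members Rpl7a read 0.017 and Rpsa 0.041. Rpl7a read 11.70 to 12.14 (median 11.93) in MEF and 12.47, 12.36, 12.47 and 12.49 in SGM, without overlap, and differed by -0.52 (SE 0.08; limma, adjusted p = 2.50e-06). The rises were 1 without SGM replicate 1, SGM replicate 4, MEF replicate 1 or MEF replicate 2 and 0 without SGM replicate 2, SGM replicate 3 or MEF replicate 6. Leaving out any 1 of 7 arrays ended the call of Rpl39l, and any 1 of 3 that of Rps18. The mean level of the erythroid markers was 5.89 to 6.13 on the MEF arrays against 11.29 to 11.95 in SGM, and their part was not tested. The 99th percentile of all probe sets was 12.96 to 13.12 on the MEF arrays and 12.05 to 12.66 on all others. Quantile normalization gave 1 member higher and 20 lower in MEF over SGM (22.6% and 25.4% of all genes). With arrays centred on the median of the members, 20 were higher and 0 lower. That median was the level of Rpl37a in both groups (10.32 in MEF, 10.86 in SGM). The setting therefore takes the fall of Rpl37a off every member, and the median difference of the members went from -0.11 to 0.43. The part of scaling was not tested.

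HSC stood out by more members than any other comparison. Against the mean of SGM, MEF and NSC 27 of 35 members were higher and none lower, compared with 36.8% and 27.6% of all genes; the median difference of the members was 0.48 and that of all genes 0.08. By subunit, 10 of 14 large and 13 of 16 small subunit members rose, as did Rplp0 and 3 of 4 variant copies. At an unadjusted p under 0.05 in limma the count was 27 as well, none of them lower. The largest rises were Rpsa (1.65), which is also known as the laminin receptor, Rps10 (1.64), Rpl19 (1.26), Rpl39l (1.24) and Rps7 (0.96). Not called were Rpl6, Rps4x, Rps13, Rps27l, Rps20, Rpl39, Rpl32 and Rpl22.

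Rpsa read 10.89 and 11.51 in HSC, 9.57, 9.32, 9.32 and 9.53 in SGM, 8.69 to 9.24 (median 8.93) in MEF, and 10.41 and 10.12 in NSC. Both HSC arrays were above every other array of the series, and the difference was 1.65 (SE 0.14; limma, adjusted p = 1.03e-10). Rps10 read 13.12 and 13.42 in HSC, 11.98, 11.52, 11.66 and 11.93 in SGM, 11.21 to 11.96 (median 11.38) in MEF, and 11.83 and 11.46 in NSC. The gap to the nearest somatic array exceeded the spread within any of these groups, and the difference was 1.64 (SE 0.16; limma, adjusted p = 5.92e-10). Rpl19 read 13.69 and 13.54 in HSC, 12.39, 12.11, 12.20 and 12.33 in SGM, 12.20 to 12.81 (median 12.38) in MEF, and 12.62 and 12.14 in NSC. HSC again did not overlap the others, with a difference of 1.26 (SE 0.14; limma, adjusted p = 1.83e-08).

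**Figure D3:**
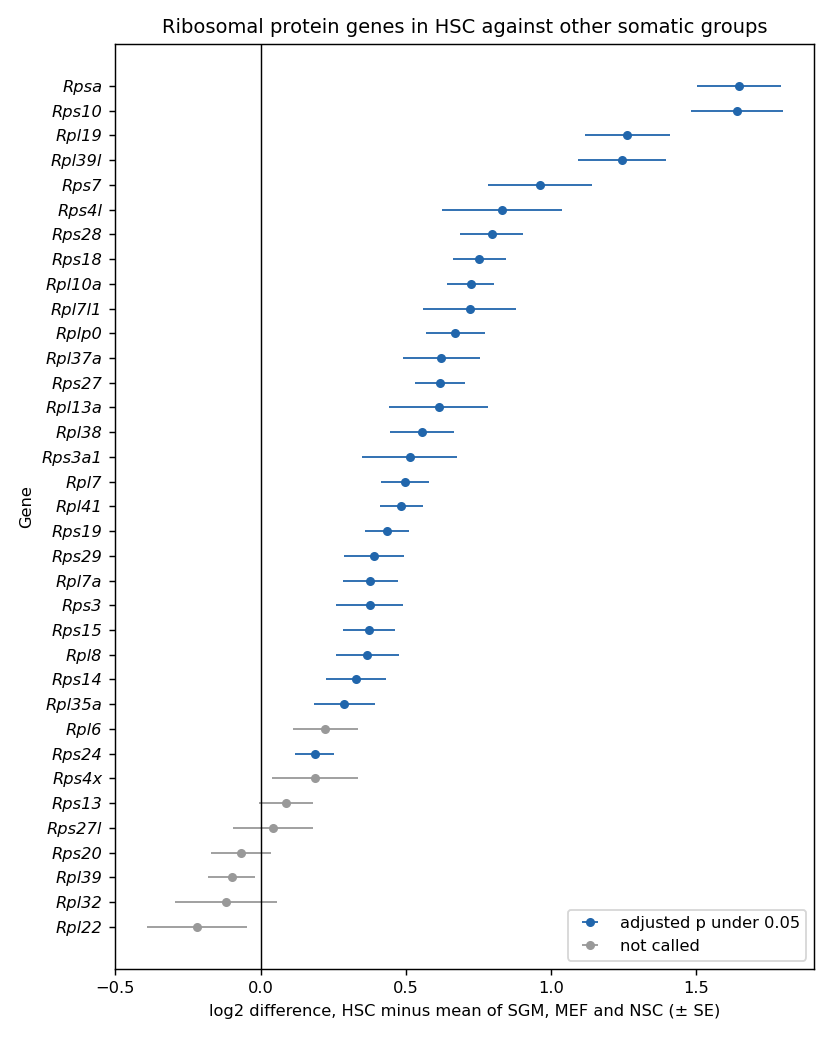
Log2 difference of HSC minus the mean of SGM, MEF and NSC for each of the 35 members, with bars of 1 SE; blue points are called (limma, adjusted p under 0.05) and grey points are not. Nearly all points lie right of 0, with Rpsa and Rps10 above 1.5.

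NSC and HSC stood apart from the other groups on the control probe sets. Over the 66 control probe sets the mean profile of NSC correlated with that of the other groups at 0.29 and that of HSC at 0.35, whereas the groups other than these 2 gave 0.972 to 0.995 and NSC with HSC 0.974. Over the 12422 other probe sets they correlated with the others at 0.92 and 0.88. Whatever sets the arrays of NSC and HSC apart and the difference of HSC from SGM and MEF cannot be told apart. Within the 2 groups, HSC over NSC alone had 19 members higher and 1 lower, against 29.2% and 24.5% of all genes, with a median of 0.35. Rps10 (1.62), Rps7 (1.42), Rpl19 (1.24) and Rpsa (0.93) were called there too, Rpl39l (0.12, adjusted p = 0.611) was not, and Rpl13a was lower (-0.54). Quantile normalization gave 27 higher and 1 lower against all other somatic groups, beside 34.1% and 29.2% of all genes. Among markers, Kit read 9.69 in HSC and at most 8.54 in any other group, but Ptprc was dim (5.68 in HSC), and Lyz2, a gene of myeloid cells, read 9.15 in HSC; over 4 macrophage markers the mean level was 7.50 and 7.59 in HSC and at most 6.89 elsewhere among the somatic groups. Over 3 measured haematopoietic stem cell markers of 6 the mean level was 6.30 and 6.33 in HSC and 6.14 to 6.43 in SGM, so that list did not set HSC apart. The part of myeloid cells was not tested.

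Cultured groups (ESC, EGC, MEF and NSC) over freshly isolated ones gave 2 members higher and 16 lower, against 23.8% and 31.5% of all genes. The rises were Rpl13a (0.59) and Rpl7l1 (0.32), and the largest falls Rpl39l (-1.24), Rps4l (-0.58), Rps10 (-0.38), Rpl19 (-0.30) and Rpl32 (-0.22). Several of these rested on 1 or 2 groups: without MEF Rps4l read -0.056 (limma, adjusted p = 0.623), and without NSC and HSC Rps10 read -0.12 (limma, adjusted p = 0.264) and Rpl19 -0.086 (limma, adjusted p = 0.36). The call of Rpl32 was lost when any 1 of 7 arrays was left out and under array-median centring or quantile normalization. Without MEF the numbers were 6 and 7, against 23.5% and 28.4% of all genes, and without NSC and HSC they were 7 and 6, against 21.5% and 26%. Array-median centring gave 5 and 11 (26% and 27.7%). The number of rises was 4 without HSC replicate 2.

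Other gene lists of the ribosome's making and use were measured beside the members. Of 86 listed assembly factors 63 were measured, and in pluripotent over somatic 53 were higher and 4 lower, with a median of 0.76, beside 29.1% and 34.9% of all genes; the ribosomal proteins had 10 and 6. Utp4 (1.75) and Utp18 (1.70), of the processome that cleaves the 18S precursor, Exosc7 (1.61), of the exosome, and Nmd3 (1.59), the export adaptor of the large subunit, rose most. In PGC E11.5 over SGM 53 were higher and none lower (median 0.97; 23.2% and 26.9% of all genes), and under median centring and quantile normalization the counts were 57 and 52. From E11.5 to male E13.5 4 were higher and 28 lower (median -0.23; 31.7% and 20.7% of all genes), and to female E13.5 2 and 36 (median -0.43; 16.3% and 15.2%), while the ribosomal proteins had 13 and 1, and 5 and 0. In EGC over male PGC E13.5 30 assembly factors were higher and 1 lower (median 0.39), beside 14.8% and 15.9% of all genes. In HSC over other somatic groups 35 were higher and 7 lower (median 0.38), beside 36.8% and 27.6% of all genes, led by Nop56 (1.99), a core protein of box C/D particles, and Rcl1 (1.89). Of 17 measured genes of RNA polymerase I and ribosomal DNA transcription 12 were higher and 2 lower in pluripotent over somatic (median 0.60), beside 29.1% and 34.9% of all genes. Rrn3 (1.40), the initiation factor, was in the lead.

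Mitochondrial ribosomal proteins, which serve the separate ribosome of that organelle, had 61 genes measured. In pluripotent over somatic 47 were higher and 1 lower (median 0.42; 29.1% and 34.9% of all genes), with Mrpl50 (1.37) and Mrpl36 (1.19) the largest. In HSC over other somatic groups 27 were higher and 14 lower (median 0.22; 36.8% and 27.6% of all genes), and in MEF over SGM 4 were higher and 28 lower (median -0.26; 22.2% and 27.6%). The 15 measured translation factors whose messages carry a TOP motif had 3 higher and 3 lower in pluripotent over somatic (median 0.02), beside 29.1% and 34.9% of all genes. In male PGC E13.5 over E11.5 they had 2 higher and 8 lower (median -0.47), beside 31.7% and 20.7% of all genes, and in HSC 4 and 4. The 13 genes of mTORC1 and TOP control had 5 higher and 7 lower in pluripotent over somatic, beside 29.1% and 34.9% of all genes, with Larp1 higher by 0.79. In HSC they had 9 and 1, beside 36.8% and 27.6% of all genes. Of 10 Myc family genes 4 were higher and 3 lower in pluripotent over somatic: Mycn, the embryonic form, by 3.37, whereas Myc was lower by a log2 difference of -1.21. Import factors and chaperones of ribosomal proteins (6 higher and 2 lower of 13), and p53 and nucleolar stress genes (3 and 2 of 7) completed the lists in pluripotent over somatic. The shares of all genes there were 29.1% and 34.9%. Fau, a fusion gene that yields a small subunit protein, was at -0.16. The shares of the TOP factors in HSC were near or below those of all genes (36.8% and 27.6%). For the Myc family in pluripotent over somatic, the share higher was above the 29.1% of all genes and the share lower was below the 34.9%. The lists differ in length and in signal, and no test set them against each other.

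**Figure D4:**
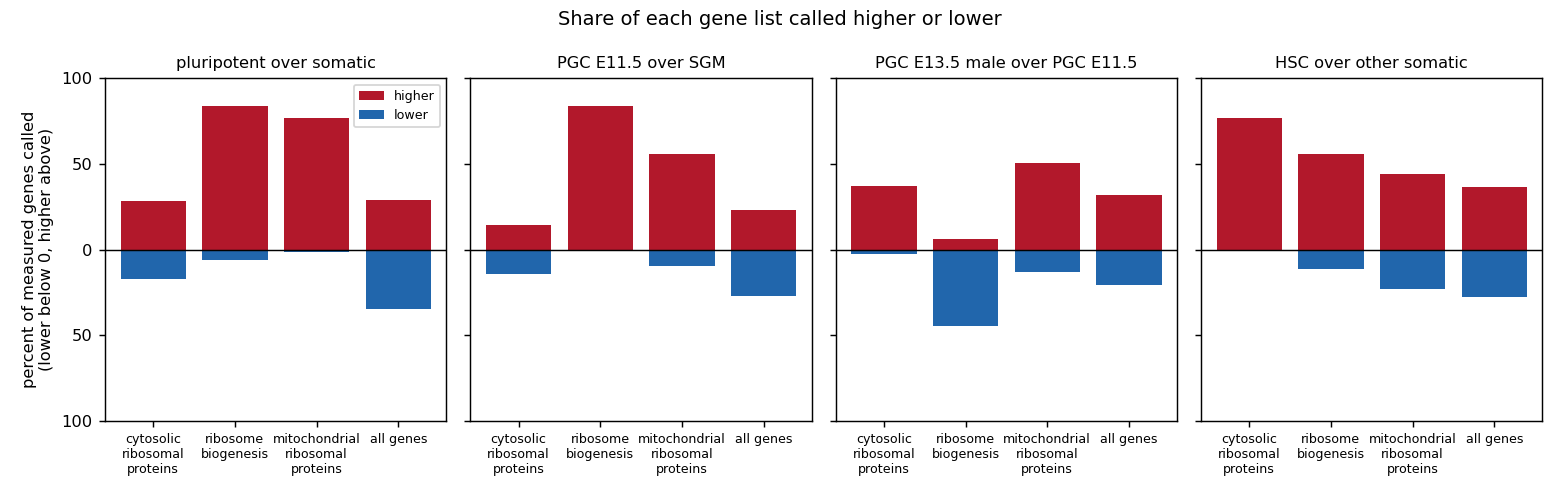
Percent of measured genes called higher (red, above 0) or lower (blue, below 0) in 4 comparisons, for the 35 cytosolic ribosomal proteins, 63 assembly factors, 61 mitochondrial ribosomal proteins and all 8251 genes. The red bar of the ribosomal proteins is near that of all genes in pluripotent over somatic and above it in HSC, and the assembly factors turn from red to blue between PGC E11.5 over SGM and male PGC E13.5 over E11.5.

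Members did not share a single profile. Over the 10 group means the median correlation between pairs of members was 0.32, and 0.48 among the 21 members with a mean level above 9; all points share the same arrays. The genes outside the list whose group means were most like the median of the members were Afp (r = 0.98), Ppp1r1a (0.96), Ptprj (0.95), Grpel1 (0.94), Oxnad1 (0.94), Timm13 (0.94), Mrpl12 (0.94), Ifnb1 (0.92), Haus5 (0.92) and Gfus (0.92), each over 10 groups. They were picked as the highest of all other genes, so these values do not show a link with the members. The median used was the middle level in each group. It was the level of Rpl13a in ICM, ESC and NSC and of Rpl37a in PGC E11.5, SGM and MEF, so it is not a pattern common to the members. The group means of Afp, Ppp1r1a, Ptprj and Ifnb1 spanned only 0.55, 0.56, 0.58 and 0.47, and those of the others 0.76 (Oxnad1) to 3.35 (Mrpl12). Where a member had a further bright probe set the direction in HSC was kept for Rpl10a (1.40 against 0.72 in the brighter one) and for Rps28 (0.30 against 0.79). A dimmer probe set of Rpl19 gave 0.20 (limma, adjusted p = 0.0921) where the brighter gave 1.26, and one of Rpl22 gave 0.31 where the brighter gave -0.22, so for these genes the size rests on the probe set.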

How the data were processed

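RNA from 34 samples was hybridised to Affymetrix mouse arrays of 12488 probe sets. The authors deposited log2 expression values, made with RMA per the submitters' processing notes; whether all arrays were normalized together is not given in the sources used here, and the table holds no detection calls. A total of 2 columns equal the mean of other columns within 1e-06 (ESC replicate 3 and PGC E11.5 replicate 5) and were left out, leaving 32 arrays. Probe sets were named through the platform annotation with symbols updated by gene ID (10833 with 1 symbol, 396 with several, 1193 with none), and the brightest probe set stood for each of 8251 genes. Members and lists were chosen with earlier results of these data known. Named are, per comparison, up to 5 largest rises and 5 largest falls among called members, the variant copies, the stalk, the 10 widest and 5 narrowest ranges, and up to 4 largest of each other list, with the X-linked members between the sexes. Other genes were chosen after their values were seen.

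Groups were fitted in 1 model by lmFit and eBayes (limma 3.58.1, R 4.3.3; 22 residual degrees of freedom, median residual SD 0.161), with Benjamini-Hochberg adjustment over 8251 genes, 2-sided; called means an adjusted p under 0.05. The step was tested on simulated data. Alternatives were other scalings, probe-set choices, a dim-gene filter, array weights, fewer groups, a replicate block and leaving out each array. The number of arrays per group limits the precision. Replicate numbers carry no stated meaning across groups and were not treated as pairs.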

Additional observations from a re-analysis of the deposited data

Results flagged for a closer look

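Within groups of at least 4 arrays, 10 single arrays lay far from the others of their group for a member, of 105 groups tested; chance flags about 1 in 20 groups. PGC E11.5 replicate 2 was low for Rpl35a (7.004, the others 7.18 to 7.21), Rpl38 (6.26, the others 6.58 to 6.61) and Rps13 (9.02, the others 9.20 to 9.22). PGC E11.5 replicate 4 was high for Rplp0 (13.14, the others 12.86 to 12.90), Rps20 (5.93, the others 5.75 to 5.76) and Rps27 (8.66, the others 8.50 to 8.52). SGM replicate 2 was low for Rpl39l (4.07, the others 4.27 to 4.30) and SGM replicate 4 for Rps27l (7.06, the others 7.29 to 7.34). MEF replicate 5 was low for Rplp0 (12.87, the others 13.04 to 13.14) and MEF replicate 6 high for Rps19 (12.60, the others 12.41 to 12.44).

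The change from embryo to culture differed between the germ line (EGC minus male PGC E13.5) and the embryo (ESC minus ICM) for 10 members by the interaction term in limma. The difference of differences was above 0 for Rpl7l1 (1.00), Rpl13a (0.86) and Rps3 (0.47). It was below 0 for Rps7 (-0.87), Rpl37a (-0.77), Rps10 (-0.70), Rps27l (-0.63), Rpl10a (-0.56), Rps28 (-0.47) and Rps19 (-0.38). Array-median centring ended the calls of Rps7, Rps10 and Rps27l (limma, adjusted p = 0.0589, 0.0715 and 0.0763). It left 2 members below 0, Rpl37a and Rpl10a, so Rps28 and Rps19 lost their calls too. The call of Rps3 was lost when any 1 of 8 arrays was left out.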

How the results depend on the processing

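The F test called 32 to 35 members in every alternative that leaves out an array. Of the values of single named members under all alternatives, 1718 kept their direction and side of the threshold, 160 lost the call and 8 reversed. The reversed ones were Rplp0 and Rpl7 in pluripotent over somatic (0.17 and 0.10 under quantile normalization, 0.092 and 0.014 without NSC and HSC), Rps4l in PGC E11.5 over SGM with plain probe sets (-0.051), Rps18 in MEF over SGM under quantile normalization (-0.39), and Rpl7a (0.017) and Rpsa (0.041) in MEF over SGM centred on the members' median.

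Counts of members that moved by over 1.5 times follow, as members higher and lower. Centred on the median of the members: pluripotent over somatic 4 and 2, PGC E11.5 over SGM 3 and 1, female E13.5 over E11.5 0 higher, male E13.5 over E11.5 0 and 4, ESC over ICM 0 and 1, EGC over male PGC 1 lower, culture step 0 lower, EGC over ESC 2 and 1, MEF over SGM 20 and 0, HSC 5 and 3, cultured over fresh 4 lower. This setting subtracts, on each array, the signal of the member in the middle of the ranked levels, such as Rpl37a in MEF and SGM. The difference of that gene is thereby taken off all members. Centred on their mean (chosen after seeing the data): 4 and 14, PGC E11.5 over SGM 14 lower, female 1 lower, male 5 and 4, EGC over male PGC 1 lower, culture step 4 lower, MEF over SGM 6 higher, HSC 8 and 10, cultured over fresh 8 and 5. Under quantile normalization (chosen after seeing the data): pluripotent over somatic 20 and 2, PGC E11.5 over SGM 11 higher, female 14 higher, male 22 higher, ESC over ICM 13 higher, EGC over male PGC 13 lower, culture step 1 and 15, EGC over ESC 11 lower, MEF over SGM 1 and 20, HSC 1 lower. Centred on the array median: PGC E11.5 over SGM 8 higher, EGC over male PGC 1 lower, culture step 2 lower, HSC 1 lower, cultured over fresh 5 higher. The median of all genes moved by at most 0.121 under array-median centring and 0.0518 under quantile normalization. With array weights: PGC E11.5 over SGM 9 and 11, female 13 and 1, male 3 lower, female over male 2 higher, EGC over male PGC 8 lower, EGC over ESC 7 and 10. With only the groups compared: male 2 lower, ESC over ICM 2 and 1, EGC over ESC 7 lower, MEF over SGM 1 higher. With all 34 columns: EGC over male PGC 5 lower, cultured over fresh 4 higher. With the mean of probe sets: male 0 lower, EGC over male PGC 4 lower. With dim genes left out, which drops members: ESC over ICM 1 lower, EGC over ESC 1 higher. Chosen after seeing the data, MEF left out gave pluripotent over somatic 11 lower and cultured over fresh 6 and 7, NSC and HSC left out gave 22 and 3, and 7 and 6, and HSC against NSC alone gave 1 lower. Apart from centring on the members and dropping groups or genes, the cause of these moves was not tested.

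With the replicate block, MEF over SGM had 0 members higher, and the block moved no other count by over 1.5 times. Like-numbered arrays of different groups correlated at -0.566 to 0.521, so the numbers were not taken as pairs.

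Leaving out 1 array at a time gave these ranges of members higher and lower: pluripotent over somatic 8 to 11 and 3 to 7, PGC E11.5 over SGM 5 to 6 and 4 to 6, female E13.5 over E11.5 3 to 8 and 0, male 11 to 13 and 0 to 1, female over male 0 and 0, ESC over ICM 3 to 9 and 1 to 3, EGC over male PGC 2 and 1 to 3, culture step 1 to 3 and 3 to 8, EGC over ESC 1 to 5 and 2 to 4, MEF over SGM 0 to 2 and 10 to 13, HSC 20 to 27 and 0 to 1, cultured over fresh 2 to 4 and 12 to 16. Signal limits the dim members, whose differences may be understated.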

Other observations

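The 39 probe sets that carry several symbols, at least 1 of them a ribosomal protein, were fitted beside the genes. In HSC over other somatic groups 35 were higher and none lower, with a median difference of 0.60, beside 36.8% and 27.6% of all genes. In pluripotent over somatic 10 were higher and 7 lower (median 0.04), near or below the 29.1% and 34.9% of all genes. In ESC over ICM 18 were higher and none lower (median 0.33; 15.3% and 12.6% of all genes), and in the culture step, germ line minus embryo, none was above and 20 were below 0 (median -0.46; 14.2% and 18.3% of all genes). In MEF over SGM 4 were higher and 16 lower (22.2% and 27.6% of all genes), and in EGC over ESC 1 was higher and 12 were lower (20.8% and 18.6%). Each probe set can read several genes, so none is assigned to a member.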
